A study of Mus musculus with 7 samples.

Results

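The proteasome genes of the mouse retina were compared between infusion of angiotensin II (Ang II), the hormone that constricts vessels and raises blood pressure, and infusion of saline. Libraries are named by group and replicate number, as in Ang II 1 or saline 3. Members were the genes annotated as protein coding whose symbol begins with Psma, Psmb, Psmc, Psmd or Psme followed by a digit, and 45 of the 54532 genes in the deposited count table met this rule. They comprised 8 genes for alpha subunits of the 20S core, 8 for constitutive beta subunits (with the thymus-specific Psmb11) and 3 for immunoproteasome subunits. There were 6 for ATPase subunits of the 19S cap, 14 for other 19S cap genes (with the assembly chaperones Psmd5, Psmd9 and Psmd10) and 4 for activators. The last 2, Psmc3ip and Psme2b, met the pattern by name and were kept apart. Psmc3ip encodes a meiotic recombination factor, and Psme2b is a further copy of the Psme2 gene.

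Retinas were taken on day 28 from 4 Ang II-infused and 3 saline-infused samples and sequenced as poly-A selected RNA. Levels are given in CPM, the counts of a gene scaled to one common library total. The series text gives all mice as ApoE-/-, a background prone to atherosclerosis, whereas each sample is labelled WT, and no age, sex, strain or dose is given in the sources used here. Apoe had 253 to 406 counts in the Ang II libraries and 150 to 304 in the saline libraries, and whether these reads lie outside a deleted part of the gene cannot be read from gene totals. No label says that the libraries came from separate animals, so p-values measure only the spread between these samples, which may be technical. Total counts ranged from 14655431 to 17563493 per library, and saline 2 stood apart from the other 6 libraries on the first principal component (33.3% of the variance). Markers of rods, the most numerous cells of the mouse retina, summed to 59631 ± 5762 CPM for Ang II (SD, n = 4), against 68689.7 ± 2516 CPM for saline (SD, n = 3), with all 10 markers above 0 in every library. Of the tissues next to the retina, pigment epithelium and melanocyte markers (9 genes) summed to 1129 to 1517 CPM in Ang II and 493 to 1065 CPM in saline. Rlbp1 alone gave 416 to 492 CPM of this in Ang II and 372 to 488 CPM in saline, and which cells gave it was not tested. Other markers of this list differed more. Rpe65 was at 107 to 204 CPM in Ang II and 19.8 to 92.0 CPM in saline. Ttr was at 375 to 641 CPM and 56.4 to 364 CPM, and Rdh5 and Lrat were also higher in Ang II. Each of these had an edgeR adjusted p of 0.982, and Mlana had a lower mean in Ang II (1.25 against 1.38 CPM). The 5 lens markers summed to 1751 CPM in Ang II 2, and the 5 skeletal muscle markers to 198 CPM in Ang II 3. In whole tissue, fewer cells of a type and less RNA per cell cannot be told apart.

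The proteasome degrades proteins tagged with ubiquitin. Its barrel-shaped 20S core is built from rings of alpha subunits, which gate the entry, around rings of beta subunits, which include the proteolytic sites carried by Psmb5, Psmb6 and Psmb7. The 19S cap recognises the ubiquitin chain, removes it and unfolds the substrate with a ring of ATPases. Under interferon, and constitutively in immune cells, Psmb8, Psmb9 and Psmb10 take the place of Psmb5, Psmb6 and Psmb7, which yields the immunoproteasome that supplies peptides for class I antigen presentation. Psme1 and Psme2 together, Psme3 alone and Psme4 alone form caps that work without ubiquitin recognition. The transcription factors NRF1 (Nfe2l1) and NRF2 (Nfe2l2) are known to raise proteasome subunit genes when proteasome activity is short or under oxidative stress.

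No proteasome gene passed the adjusted threshold between Ang II and saline retinas, and the groups overlapped in the summed level of every subgroup but the non-ATPase genes of the cap. Summed over the 43 members that passed the filter on low counts, the level was 2439, 2399.9, 2383 and 2465 CPM across Ang II 1 to 4, against 2484, 2425 and 2668 CPM across saline 1 to 3. Saline 3 was highest, and the other 6 libraries, 2 of them saline, lay within 2383 to 2484 CPM. With the quasi-likelihood test of edgeR, 0 of the 43 members passed an adjusted p of 0.05, where the share over all 17078 tested genes was also 0 genes (0.0%). An unadjusted p under 0.05 was reached by 0 members, against 4.62% of all tested genes, and DESeq2 and limma-voom called 0 members as well (0.205% and 0.831% of all tested genes). Member adjusted p-values with edgeR ranged from 0.982 to 0.998.

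Log2 fold changes (Ang II over saline) ran from -0.40 for Psmb9 to 0.25 for Psme2, with a median of -0.043 beside -0.0048 over all tested genes and -0.021 over the 7398 genes at a mean of 20 to 200 CPM. Below 0 lay 36 of 43 members, against 51.1% of all tested genes. This split moved with the scaling of the libraries. Scaled by total counts alone, 10 of 14 core and 9 of 20 cap genes lay below 0, with 39.3% of all tested genes, in place of 14 of 14 and 16 of 20. The 95% interval of the fold change stayed within 0.5 of 0 on the log2 scale for 37 members. The other 6 were the low-level genes Psmb8, Psmb9, Psmb10, Psme2, Psmc3ip and Psme2b, whose intervals reached further. The groups did not overlap in 1 member, Psma5, where 5.91% of all tested genes had groups that did not overlap (Ang II below saline in 2.73%).

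**Figure D1:**
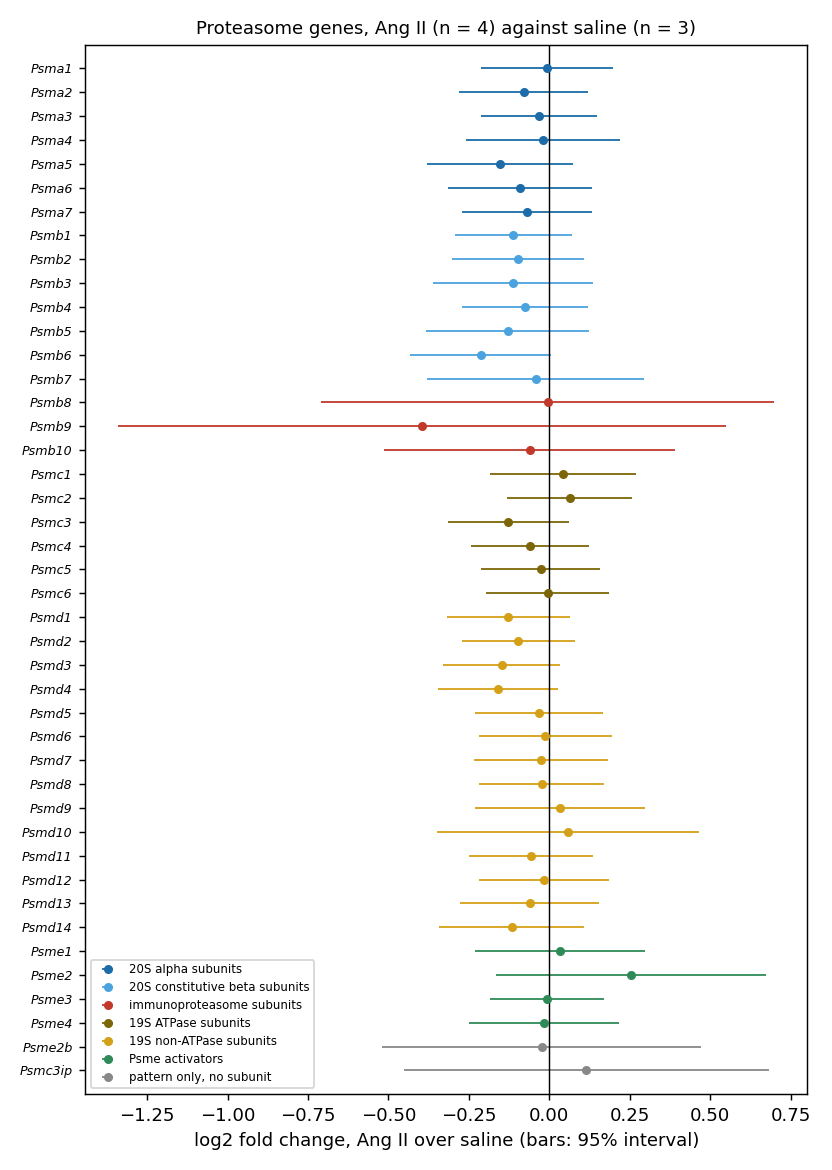
Log2 fold change of each of the 43 tested genes, Ang II (n = 4) over saline (n = 3), on the x axis, with edgeR 95% intervals as bars and subgroups in colour. Every interval includes 0, and the widest belong to Psmb8 and Psmb9, the members of lowest level.

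Within saline, the range from the lowest to the highest library exceeded the group difference (both on the log2 scale) in 39 of 43 members. Within Ang II it did so in 40. The share over all tested genes was not computed, so these counts cannot be read as particular to the members. Saline 3 held the highest level of 24 of the 43 members (55.8%), where it was the highest library for 15.2% of all tested genes and 18.5% of genes at 20 to 200 CPM. Among the 34 constitutive core and cap genes with a test it was highest for 22 and lowest for 0. Their median deviation from the 7-library median of the gene was 0.13 in log2 CPM in saline 3 and between -0.047 and 0 in the other 6 libraries. Without saline 3, 10 of 14 core genes and 10 of 20 cap genes lay below 0, and 0 members were called (0.667% of all genes tested). Summed pigment epithelium markers were also higher in that library (1065 CPM) than in saline 1 and 2 (522 and 493 CPM). Rlbp1 gave most of the sum in saline 1 and 2, at 416 and 372 CPM, against 488 CPM in saline 3. Rpe65 differed more (19.8, 25.9 and 92.0 CPM across saline 1 to 3), while Mlana and Pmel were highest in saline 1 among saline libraries. The sums were higher still in the Ang II libraries, and the part of these markers in the result was not tested. Saline 2 was the lowest library of 12 members (27.9%), against 23.2% of all tested genes and 20.3% at 20 to 200 CPM. The highest library exceeded the lowest by a median factor of 1.26 over the members and 1.31 over genes at 20 to 200 CPM.

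**Figure D2:**
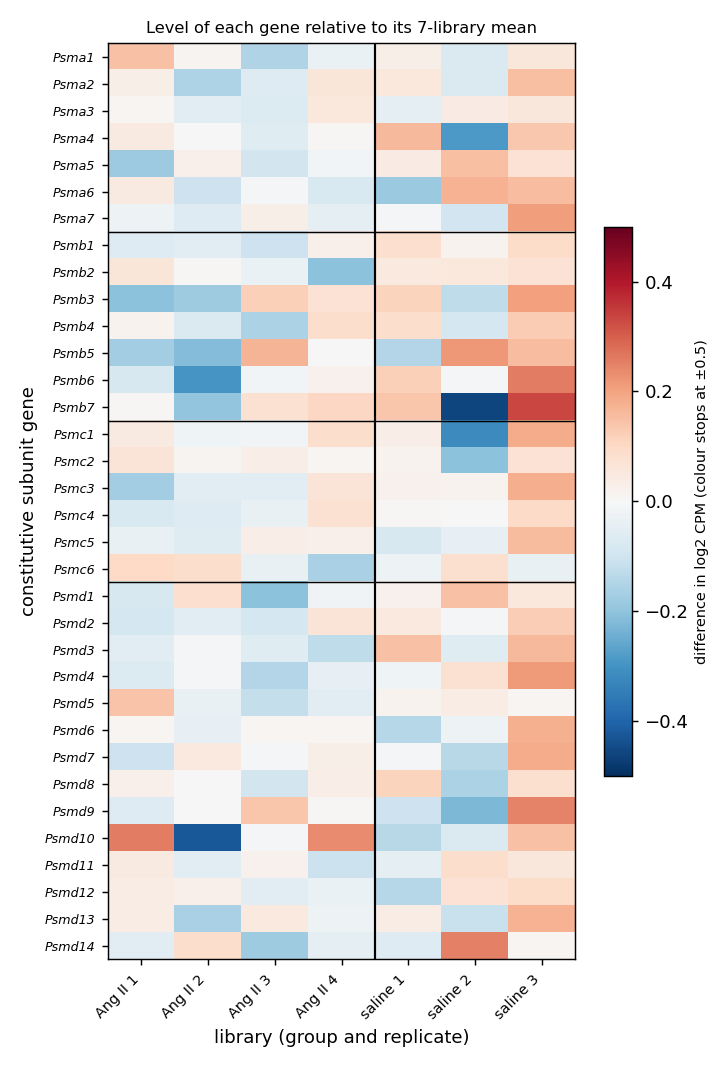
Colour shows the difference of each of the 34 constitutive core and cap genes (rows) in each library (columns) from its 7-library mean, in log2 CPM, with Ang II libraries left of the vertical line. Red marks a level above the mean and blue one below it; the saline 3 column is red in most rows, while the saline 2 column mixes blue (deepest in Psmb7) and red.

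Alpha subunits form the outer rings of the core. Of the 8, 7 were tested, and Psma8, the testis form, had 5, 0, 2 and 5 counts in Ang II and 0, 9 and 2 in saline and fell under the filter. All 7 lay below 0 (4 with scaling by total counts), with a median of -0.069, and 0 reached an unadjusted p under 0.05. Without saline 3 the median was -0.0065. Psma5 (ENSMUSG00000068749, chr3:108256926-108279974, mm10) had 26.1, 30.2, 27.9 and 29.4 CPM across Ang II 1 to 4, against 30.6, 32.9 and 31.2 CPM across saline 1 to 3. Every Ang II library was below every saline library, by a narrow margin. With scaling by total counts the groups overlapped, at 26.2, 30.2, 28.7 and 29.9 CPM against 29.6, 32.1 and 31.2 CPM, and 0 members had groups apart. Its log2 fold change was -0.15 ± 0.11 (SE) with an interval of -0.38 to 0.074 and an unadjusted p of 0.171 (edgeR adjusted p = 0.982). Psma6 had 52.2, 47.2, 50.5 and 48.0 CPM across Ang II 1 to 4, against 44.5, 57.1 and 56.4 CPM across saline 1 to 3. Saline 1 was the lowest library here and saline 2 and 3 the highest, so that the saline group spanned the Ang II group (log2 fold change -0.090 ± 0.10 (SE)). Psma2 had 69.7, 61.3, 65.2 and 71.1 CPM across Ang II 1 to 4, against 70.9, 65.1 and 75.9 CPM across saline 1 to 3. The groups overlapped, with a log2 fold change of -0.079 ± 0.094 (SE). Psma1, Psma3, Psma4 and Psma7 had log2 fold changes between -0.069 and -0.0083. Per kilobase of gene length, the tested genes of this ring ranged from 18.6 (Psma3) to 41.2 CPM per kb (Psma6). In the annotation, 23 of the 45 members share bases with another gene record, 19 of them with one on the opposite strand. The protocol names no step that marks strand, so such reads cannot be told apart. Among alpha genes this concerns Psma3 (with 3110056K07Rik) and Psma2 (with AW209491).

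Beta subunits form the inner rings. Psmb11 had 0 counts in all 7 libraries, and a 0 leaves room for at most 0.210 CPM in the shallowest. The other 7 all lay below 0 (6 with scaling by total counts), with a median of -0.11 (-0.085 without saline 3) and a range of -0.21 to -0.043, and 0 reached an unadjusted p under 0.05. Psmb6 (ENSMUSG00000018286, chr11:70525367-70527858), which carries the caspase-like site, had 59.5, 51.3, 62.3 and 63.9 CPM across Ang II 1 to 4, against 68.4, 62.5 and 75.1 CPM across saline 1 to 3. Ang II 2 was the lowest library and saline 3 the highest, while saline 2 lay within the Ang II range. This was the member of smallest p, with a log2 fold change of -0.21 ± 0.10 (SE), an interval of -0.43 to 0.0064 and an unadjusted p of 0.0562 (edgeR adjusted p = 0.982). Without saline 3 the fold change was -0.14, and without Ang II 2 it was -0.15.

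Psmb5 (ENSMUSG00000022193, chr14:54614119-54618022), which carries the chymotrypsin-like site, had 42.2, 40.9, 53.7 and 47.6 CPM across Ang II 1 to 4, against 43.0, 55.4 and 53.0 CPM across saline 1 to 3. Both groups held libraries at the low and at the high end, and the log2 fold change was -0.13 ± 0.12 (SE). Psmb7 (ENSMUSG00000026750, chr2:38588036-38644087), which carries the trypsin-like site, had 37.7, 32.7, 39.5 and 40.2 CPM across Ang II 1 to 4, against 41.3, 27.3 and 47.3 CPM across saline 1 to 3. Saline 2 and 3 were the lowest and the highest of all libraries, a factor of 1.73 apart, with the Ang II libraries between them. Its log2 fold change was -0.043 ± 0.16 (SE). Psmb1, a structural subunit of the ring, had 63.0, 63.5, 61.3 and 67.1 CPM across Ang II 1 to 4, against 69.7, 66.7 and 70.2 CPM across saline 1 to 3. Ang II 4 overlapped saline 2 alone, and the log2 fold change was -0.11 ± 0.085 (SE). Psmb2, Psmb3 and Psmb4 had log2 fold changes of -0.098 ± 0.096 (SE), -0.11 ± 0.12 (SE) and -0.075 ± 0.092 (SE). In level per length the 7 genes ranged from 11.1 (Psmb7) to 53.4 CPM per kb (Psmb5), although each protein enters the ring in equal number. The length in the table is that of the whole gene model, so a model with long extra exons gives a lower value per kb. Psmb7 shares bases with Nek6 on the other strand.

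**Figure D3:**
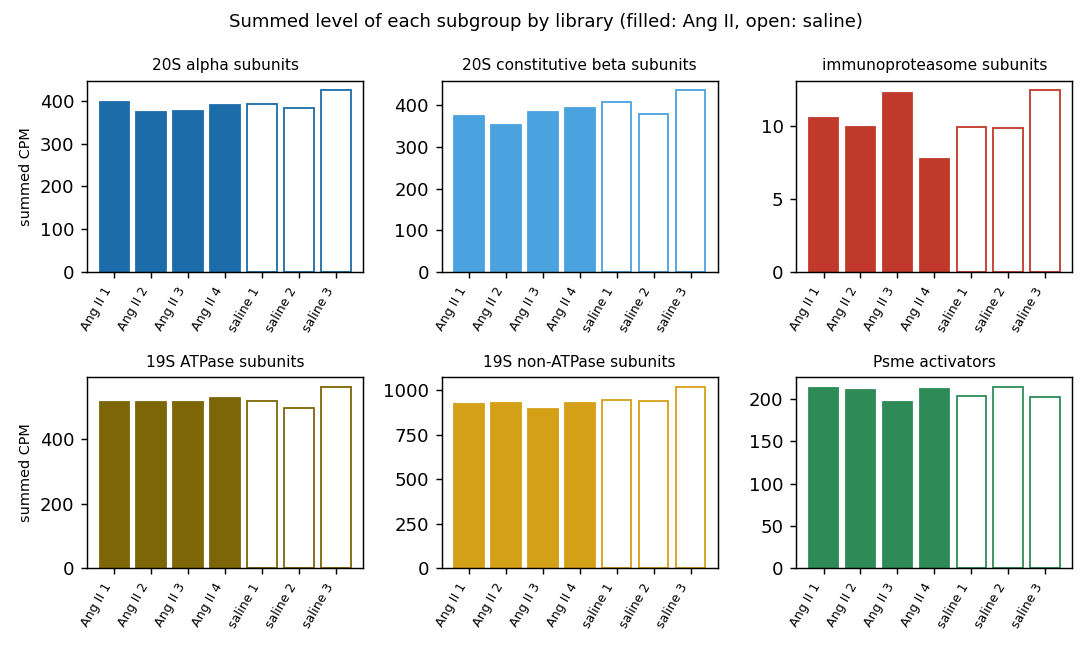
Bars give the summed CPM of each subgroup in each library, filled for Ang II and open for saline, from an axis that starts at 0. Saline 3 has the tallest bar in both core panels and both cap panels, and the activator panel is nearly level.

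Immunoproteasome genes were at low level in both groups, which overlapped in each gene, and 0 of the 3 reached an unadjusted p under 0.05 with edgeR. Their summed level was 10.5, 9.96, 12.3 and 7.72 CPM across Ang II 1 to 4, against 9.91, 9.88 and 12.5 CPM across saline 1 to 3. The highest libraries were saline 3 and Ang II 3, and the lowest was Ang II 4. Psmb8 (ENSMUSG00000024338, chr17:34197721-34201454) had 32, 29, 42 and 21 counts in Ang II and 28, 27 and 33 in saline, that is 1.81, 1.77, 2.66 and 1.27 CPM across Ang II 1 to 4, against 1.73, 1.89 and 2.02 CPM across saline 1 to 3. The Ang II libraries lay on both sides of the saline libraries, and the log2 fold change was -0.0049 ± 0.33 (SE) with an interval of -0.71 to 0.70. Psmb9 (ENSMUSG00000096727, chr17:34181988-34187764) had 23, 12, 17 and 13 counts in Ang II and 14, 31 and 14 in saline, that is 1.30, 0.733, 1.07 and 0.784 CPM across Ang II 1 to 4, against 0.867, 2.17 and 0.856 CPM across saline 1 to 3. Saline 2 was above the other 6 libraries, and the log2 fold change of -0.40 ± 0.44 (SE) was 0.18 without it. Psmb10 (ENSMUSG00000031897, chr8:105935735-105938444) had 7.43, 7.46, 8.54 and 5.67 CPM across Ang II 1 to 4, against 7.31, 5.82 and 9.60 CPM across saline 1 to 3. Its groups overlapped, at a log2 fold change of -0.061 ± 0.21 (SE). The 95% interval of Psmb9 was -1.34 to 0.55, and its fold change without saline 2 had an SE of 0.46.

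Set against the constitutive gene that each replaces, per length, Psmb8 stood, as a percentage of Psmb5, at 1.41%, 1.42%, 1.63% and 0.875% across Ang II 1 to 4, against 1.33%, 1.12% and 1.25% across saline 1 to 3. Psmb9 stood, as a percentage of Psmb6, at 1.12%, 0.731%, 0.882% and 0.628% across Ang II 1 to 4, against 0.648%, 1.78% and 0.583% across saline 1 to 3. Psmb10 stood, as a percentage of Psmb7, at 39.6%, 45.8%, 43.3% and 28.3% across Ang II 1 to 4, against 35.5%, 42.8% and 40.7% across saline 1 to 3. Psmb8 and Psmb9 stayed under 2% of theirs, whereas Psmb10 ran at 28.3% to 45.8% of its counterpart, and in all 3 pairs the groups overlapped. These levels depend on the length given for each gene model. From counts without division by length, Psmb8 was at 2.66% to 4.95% of Psmb5, Psmb9 at 1.14% to 3.48% of Psmb6 and Psmb10 at 14.1% to 22.8% of Psmb7, and Psmb10 was again the highest of the 3. Per length, the means were 1.33 ± 0.322% (SD, n = 4) against 1.23 ± 0.102% (SD, n = 3) for Psmb8 over Psmb5. They were 0.841 ± 0.214% against 1.004 ± 0.673% for Psmb9 over Psmb6, a difference of -0.163 percentage points that was 0.225 without saline 2. They were 39.2 ± 7.74% against 39.7 ± 3.74% for Psmb10 over Psmb7. No test was run on these ratios. Microglia and macrophage markers, cells in which these genes are constitutive, summed to 46.9, 51.6, 57.0 and 53.3 CPM across Ang II 1 to 4, against 36.5, 39.9 and 46.6 CPM across saline 1 to 3 (10 genes, of which Aif1 had 0 counts in saline 2). Those of lymphocytes and neutrophils summed to at most 3.02 CPM (6 genes, Ms4a1 at 0 in all 7 libraries and Cd3e in 6). Most of the difference in the microglial sum lay in Csf1r, the receptor of a macrophage growth factor, at 24.5 ± 1.69 CPM for Ang II (SD, n = 4), against 16.1 ± 3.55 CPM for saline (SD, n = 3). With edgeR its log2 fold change was 0.61 ± 0.15 (SE), at an adjusted p of 0.592. Cx3cr1 and P2ry12 had log2 fold changes of 0.083 ± 0.26 and 0.056 ± 0.34 (SE). C1qa, C1qb and C1qc also lay above 0 (0.17 ± 0.22, 0.24 ± 0.27 and 0.42 ± 0.23, SE), and Tmem119, Cd68 and Ptprc lay below 0 (-0.16, -0.46 and -0.31). The part of these markers in the immunoproteasome values was not tested.

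**Figure D4:**
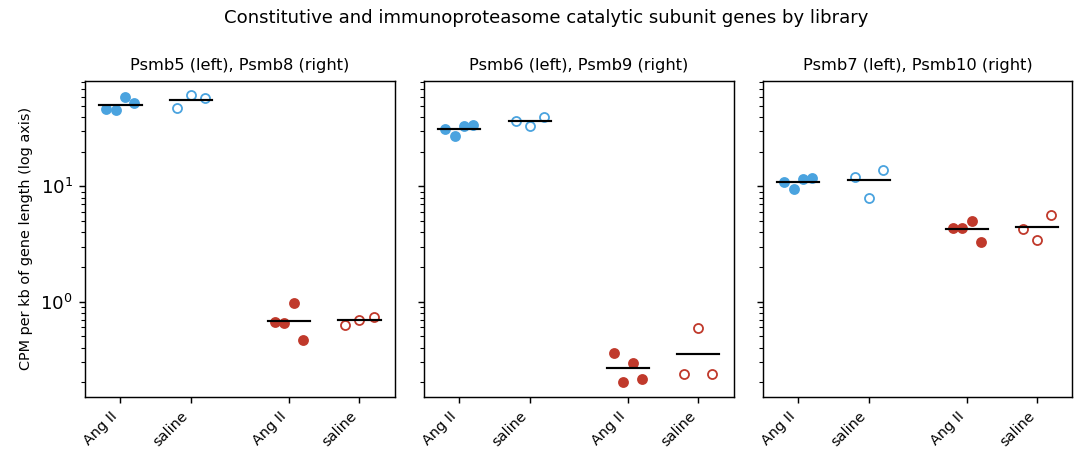
Points are libraries (filled, Ang II; open, saline) and lines are group means of CPM per kb of gene length on a log axis, for each constitutive catalytic subunit gene (left, blue) and its immunoproteasome counterpart (right, red). The groups overlap in every column, and the gap within a pair is smallest for Psmb7 and Psmb10.

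The Psmb8, Psmb9 and Tap1 genes neighbour each other on chromosome 17, and Psmb9 and the peptide transporter gene Tap1 overlap by 212 bases on opposite strands. Tap1, which shares those bases, had a log2 fold change of 0.057 ± 0.23 (SE) and was at 4.08, 4.71, 3.48 and 3.62 CPM across Ang II 1 to 4, against 4.09, 3.58 and 3.79 CPM across saline 1 to 3. Of the 12 interferon and class I antigen processing genes listed with it, 9 lay above 0 and 3 below, with a median of 0.094, and edgeR called 0 (0 at an unadjusted p under 0.05). The genes of smallest p were B2m, the light chain of class I molecules (log2 fold change 0.18 ± 0.12, SE), and Pdia3, which helps to load them (log2 fold change -0.11 ± 0.085, SE).

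The 6 ATPase genes of the 19S base, whose ring unfolds substrates, had log2 fold changes from -0.13 to 0.063, with 4 below and 2 above 0 (2 below with scaling by total counts) and a median of -0.015 (0.019 without saline 3 and 0.030 with scaling by total counts). With edgeR, 0 reached an unadjusted p under 0.05. Psmc3 (ENSMUSG00000002102, chr2:91054009-91066369) had 81.7, 88.7, 89.0 and 96.5 CPM across Ang II 1 to 4, against 93.7, 93.4 and 105 CPM across saline 1 to 3. Ang II 4 lay above 2 saline libraries, so the groups overlapped, and the log2 fold change was -0.13 ± 0.088 (SE) with an interval of -0.32 to 0.060. Psmc3 shares bases with Slc39a13 on the other strand. Psmc2 had 76.8, 74.2, 75.2 and 74.1 CPM across Ang II 1 to 4, against 74.4, 63.9 and 77.3 CPM across saline 1 to 3. Saline 2 was low and the other 6 lay close together, with a log2 fold change of 0.063 ± 0.091 (SE). Psmc1 had the same low library (74.2 CPM, against 91.0 to 105 CPM elsewhere). Psmc4 had 69.9, 70.5, 71.9 and 77.8 CPM across Ang II 1 to 4, against 74.0, 73.8 and 78.8 CPM across saline 1 to 3. Ang II 4 lay above 2 saline libraries, and the groups overlapped, with a log2 fold change of -0.059 ± 0.086 (SE). Psmc5 was the member with the most CPM per kb (68.3), and had 92.7, 91.2, 97.2 and 96.9 CPM across Ang II 1 to 4, against 90.1, 92.4 and 106 CPM across saline 1 to 3. The saline libraries lay on both sides of the Ang II libraries, with a log2 fold change of -0.026 ± 0.086 (SE). Psmc6 and Psmc1 had log2 fold changes of -0.0048 ± 0.089 (SE) and 0.042 ± 0.11 (SE).

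Among the 14 Psmd genes are scaffold and lid subunits, ubiquitin receptors, a deubiquitinase and assembly chaperones. Below 0 lay 12 (7 with scaling by total counts) and above 0 lay 2, with a median of -0.045 (-0.0071 without saline 3 and 0.0012 with scaling by total counts), and with edgeR 0 reached an unadjusted p under 0.05. Their summed level was 919, 927, 890.2 and 926 CPM across Ang II 1 to 4, against 944, 936 and 1019 CPM across saline 1 to 3. Every saline library was above every Ang II library in this sum, although the groups overlapped in each of the 14 genes. The group means were 915 ± 17.2 CPM (SD, n = 4) and 966 ± 45.6 CPM (SD, n = 3), and the sum was not tested. Scaled by total counts alone, the groups overlapped, with 922, 926, 916 and 942 CPM against 914, 911 and 1019 CPM. Psmd4 (ENSMUSG00000005625, chr3:95032694-95042614), a ubiquitin receptor, had 81.4, 84.8, 76.9 and 82.8 CPM across Ang II 1 to 4, against 84.0, 89.8 and 99.0 CPM across saline 1 to 3. Saline 2 and 3 were the highest libraries, while saline 1 lay within the Ang II range. The log2 fold change was -0.16 ± 0.087 (SE), with an interval of -0.34 to 0.028 and an unadjusted p of 0.0904 (edgeR adjusted p = 0.982). Psmd3, a lid subunit, had 105, 109, 105 and 100.1 CPM across Ang II 1 to 4, against 121, 105 and 122 CPM across saline 1 to 3. Here saline 1 and 3 were high and saline 2 was level with Ang II (log2 fold change -0.15 ± 0.085 (SE)). Psmd1, a large scaffold subunit of the base, had 85.5, 95.9, 78.5 and 89.4 CPM across Ang II 1 to 4, against 91.8, 100.3 and 93.9 CPM across saline 1 to 3. Ang II 2 lay above saline 1 and 3, and the log2 fold change was -0.13 ± 0.090 (SE). Psmd2, the other large scaffold subunit, had the highest level per length of this set (40.1 CPM per kb), with 152, 156, 152 and 169 CPM across Ang II 1 to 4, against 167, 161 and 176 CPM across saline 1 to 3. The groups overlapped, at a log2 fold change of -0.096 ± 0.082 (SE). Psmd14, the deubiquitinase of the lid, had a log2 fold change of -0.12 ± 0.11 (SE). The chaperones Psmd5, Psmd9 and Psmd10, which help to assemble the base and leave the finished particle, had log2 fold changes of -0.032 ± 0.093 (SE), 0.034 ± 0.12 (SE) and 0.057 ± 0.19 (SE). Psmd10 (gankyrin), at 10.9, 6.78, 9.10 and 10.8 CPM across Ang II 1 to 4, against 8.30, 8.69 and 10.1 CPM across saline 1 to 3, was the Psmd gene of lowest level in CPM, and its lowest and highest libraries were both Ang II libraries. The remaining lid subunits Psmd6, Psmd7, Psmd8, Psmd11, Psmd12 and Psmd13 lay between -0.061 and -0.012.

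Summed CPM of the 20 cap genes over that of the 14 constitutive core genes gave a ratio of 1.86, 1.98, 1.85 and 1.85 across Ang II 1 to 4, against 1.83, 1.88 and 1.84 across saline 1 to 3. Ang II 2 was highest and the other 6 libraries lay between 1.83 and 1.88, with saline on both sides of Ang II 1, 3 and 4.

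The 4 activator genes lay on both sides of 0, 2 above and 2 below (0 below with scaling by total counts), with a median of 0.013, which ran from -0.0092 to 0.086 when 1 library was left out. Psme1 (ENSMUSG00000022216, chr14:55578123-55581529) and Psme2 (ENSMUSG00000079197, chr14:55587441-55591113), which encode the interferon-inducible PA28 alpha and beta chains, lie 5911 bases apart. Psme2 had 10.6, 9.90, 12.8 and 12.9 CPM across Ang II 1 to 4, against 10.4, 6.66 and 11.9 CPM across saline 1 to 3. Saline 2 was the lowest library and the other saline libraries lay inside the Ang II range. Its log2 fold change of 0.25 ± 0.20 (SE) was the highest of all members, with an unadjusted p of 0.217 (edgeR adjusted p = 0.982), and it was 0.047 without saline 2 and 0.44 without saline 3. Psme1 had 23.9, 24.6, 22.4 and 24.7 CPM across Ang II 1 to 4, against 21.6, 21.2 and 27.2 CPM across saline 1 to 3. Here saline 3 was highest and the log2 fold change was 0.032 ± 0.12 (SE). Psme1 shares bases with Emc9 on the other strand. Psme3, the nuclear PA28 gamma chain, had 98.4, 98.1, 88.9 and 103 CPM across Ang II 1 to 4, against 98.1, 96.0 and 98.4 CPM across saline 1 to 3. All 7 libraries lay within a factor of 1.16 (log2 fold change -0.0067 ± 0.083 (SE), interval -0.18 to 0.17). Psme4 (PA200), a nuclear cap linked to histone breakdown, had 80.2, 77.7, 72.3 and 71.1 CPM across Ang II 1 to 4, against 72.8, 90.7 and 65.3 CPM across saline 1 to 3. Saline 2 was its highest library and saline 3 its lowest, and the log2 fold change was -0.017 ± 0.11 (SE). Per length, Psme3 (33.0 CPM per kb) stood above Psme1 (10.7), Psme4 (9.04) and Psme2 (6.09).

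Psmc3ip and Psme2b, which met only the name pattern, were low in every library. Psmc3ip had 5.05, 3.97, 3.35 and 3.92 CPM across Ang II 1 to 4, against 4.03, 2.52 and 4.71 CPM across saline 1 to 3, overlapping groups and a log2 fold change of 0.12 ± 0.27 (SE), and it shares bases with Mlx, a gene of higher count. Psme2b had 5.27, 5.50, 5.25 and 5.13 CPM across Ang II 1 to 4, against 7.06, 3.65 and 5.38 CPM across saline 1 to 3. Saline 1 and 2 were its highest and lowest libraries, at a log2 fold change of -0.023 ± 0.23 (SE). Reads of Psme2b and Psme2 may match both genes and are uncertain. Pseudogene records named after core subunits, which the rule left out, held few reads. Psmb7-ps2 had 4, 1, 5 and 0 counts in Ang II and 0 in each saline library, the 2 Psmb6 pseudogenes had 1 count each in all, and Psmb5-ps had 0.

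Genes around the particle were read from lists of its assembly, control and supply. Of 12 assembly and accessory genes, 5 lay above and 7 below 0 (median -0.035), and edgeR called 0, with 0 at an unadjusted p under 0.05. The smallest p-values were those of Adrm1, a ubiquitin receptor of the cap (log2 fold change -0.16 ± 0.094, SE), and Pomp, the maturation chaperone of the core (log2 fold change -0.15 ± 0.097, SE). Both had their highest level in saline 3 (62.1 and 58.9 CPM). Of 10 genes of NRF1 and NRF2 control, 6 lay above and 4 below 0 (median 0.024), again with 0 called and 0 at an unadjusted p under 0.05. Ngly1, the glycanase that helps to activate NRF1, had a log2 fold change of 0.25 ± 0.14 (SE), and the related factor Nfe2l3 one of 0.66 ± 0.38 (SE), with the highest level in Ang II 3. Nfe2l1 itself, named after its values were seen, was at 260.1 ± 27.8 CPM (SD, n = 4) and 265 ± 27.0 CPM (SD, n = 3). Mafg, a small Maf partner of NRF1 and also named afterwards, had a log2 fold change of -0.28 ± 0.23 (SE). Without saline 3, where it was lowest (68.1 CPM), edgeR called it (log2 fold change -0.53, adjusted p = 0.0248). Without saline 2 it was -0.098 (adjusted p = 0.978) and without saline 1 -0.18 (adjusted p = 0.996, both edgeR).

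Of 12 ubiquitin genes, activating enzymes and shuttle factors, 4 lay above and 8 below 0 (median -0.063). With edgeR 0 were called and 1 reached an unadjusted p under 0.05, where 4.62% of all tested genes did so. That gene was Rps27a, a fusion of ubiquitin and a ribosomal protein, at 46.3, 45.1, 66.0 and 55.0 CPM across Ang II 1 to 4, against 141, 57.5 and 84.5 CPM across saline 1 to 3. Saline 1 and 3 were high while saline 2 lay among the Ang II libraries, and the log2 fold change was -0.83 ± 0.32 (SE, edgeR adjusted p = 0.982). It was -0.42 without saline 1, and limma-voom called it (adjusted p = 0.00708). Near-identical copies of Rps27a make its reads uncertain. Uba1, the main ubiquitin-activating enzyme, had a log2 fold change of -0.14 ± 0.088 (SE). Of 9 genes of the p97 segregase, which hands unfolded ubiquitin conjugates to the proteasome, 5 lay above and 4 below 0 (median 0.0027), with 0 called and 0 at an unadjusted p under 0.05. The cofactor genes Nploc4 and Ubxn1 had the smallest p, at log2 fold changes of -0.12 ± 0.095 and -0.11 ± 0.096 (SE).

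Start-site sequences were searched because the stress and interferon pathways named above act through short promoter elements. RefSeq windows (GRCm38.p6) of 250 bases before to 50 after the start were found for 38 of the 45 members, 41 windows in all. Psma8, Psmb1, Psmb2, Psmb7, Psmc3, Psmd3 and Psmd7 were not matched. Both strands were searched, and the motif is in capitals in each 30-base stretch, written 5′ to 3′ on the strand of the gene. The start is that of RefSeq and can differ from the start of the gene model given above. A match is a run of letters and no evidence of binding. The core of the antioxidant response element, TGACNNNGC, read by NRF1 and NRF2, occurred in 6 of 41 member promoters (14.6%) and 12.4% of all 32851. Both constitutive catalytic genes with a window, Psmb5 and Psmb6, held it close before the start (47 and 9 bases), and the 6 matches are shown to compare them with their fold changes.
Psmb5: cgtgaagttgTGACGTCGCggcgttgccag
Psmb6: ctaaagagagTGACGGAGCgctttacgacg
Psmc6: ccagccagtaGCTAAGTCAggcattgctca
Psmd12: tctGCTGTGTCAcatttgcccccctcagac
Psmd9: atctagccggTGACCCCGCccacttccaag
Psme4: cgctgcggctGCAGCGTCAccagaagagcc
These stretches are at chr14:54618023-54618052 (-), chr11:70525338-70525367 (+), chr14:45329587-45329616 (+), chr11:107479278-107479307 (+), chr5:123228149-123228178 (+), chr11:30771758-30771787 (+), in the same order. The 6 genes had log2 fold changes from -0.21 (Psmb6) to 0.034 (Psmd9), and only Psmd9 lay above 0. Of all tested members, 36 of 43 lay below 0.

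Interferon elements were sought for the immunoproteasome and activator genes. The core of the interferon-stimulated response element, which is GAAA, any 2 bases and GAAA, occurred in 4 of 41 member promoters (9.76%) and 3.44% of all 32851, and is shown for each gene that held it, among which Psme1 is the interferon-inducible one.
Psmb3: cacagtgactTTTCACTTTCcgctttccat
Psmd4: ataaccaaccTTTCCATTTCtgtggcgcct
Psmd9: gggacagaatGAAAAAGAAAggaatgaaca
Psme1: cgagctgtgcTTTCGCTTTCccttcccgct
They lie at chr11:97703261-97703290 (+), chr3:95042675-95042704 (-), chr5:123228021-123228050 (+), chr14:55578493-55578522 (+). The core of the STAT-bound GAS element, TTCNNNGAA, occurred in 2 of 41 member promoters (4.88%) and 8.30% of all 32851, Psmb8 and Psmd2.
Psmb8: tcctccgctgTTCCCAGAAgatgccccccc
Psmd2: gcgcgtggccTTCTGGGAAaaggggcggtg
These are at chr17:34198088-34198117 (+), chr16:20651646-20651675 (+). For Psmb9 and Psmb10 these letters of the interferon motifs are not in the window searched. The NF-Y box, CCAAT, occurred in 15 of 41 member promoters (36.6%) and 37.4% of all 32851. The fold changes of genes with the interferon motifs ran from -0.16 (Psmd4) to 0.034 (Psmd9).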

How the data were processed

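RNA-seq gene counts from 7 mouse retina libraries were analysed (4 Ang II, 3 saline). The deposited raw counts were made by the authors with HISAT2 2.0.5 on mm10 and featureCounts 1.5.0-p3 after CASAVA, per the submitters' processing notes, and the annotation release, strand setting and handling of multiply mapped reads are not given in the sources used here. Gene length is a column of the deposited table, used as is. The libraries hold 14655431 to 17563493 counts. Genes passing edgeR's filterByExpr (17078 of 54532) were scaled by TMM and tested two-sided with edgeR 4.0.16 (robust quasi-likelihood, R 4.3.3), with Benjamini-Hochberg adjustment over all tested genes and a threshold of 0.05. The SE of an edgeR fold change was back-calculated as its absolute log2 value over the square root of the F statistic. The 95% intervals were built from this SE and the t distribution. CPM uses TMM-scaled library sizes, and log2 CPM a prior count of 2. A count of 0 allows up to 3 counts, which covers counting error only. Alternatives were DESeq2 1.42.0, limma 3.58.1 voom with quality weights, DESeq2 size factors, scaling by total counts, no filter, a replicate block and leaving out each library. The script was tested on simulated data with fold changes larger than that of any member. Whether it would find differences as small as those of the members was not tested. Members and gene lists were chosen with earlier results of these data known. By rule, genes given with all 7 values were the catalytic pairs, the activators and, in each other subgroup, the 3 of smallest p and the one of highest level per length; Psmd10, Rps27a and Tap1 were added after their values were seen. From each pathway list the 2 of smallest p are named. Counts of core and cap genes below 0, subgroup sums scaled by total counts, and counts of members highest in saline 3, were chosen after seeing the data. Promoter windows come from RefSeq GRCm38.p6.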

Additional observations from a re-analysis of the deposited data

Results flagged for a closer look

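Of 55 values tested in the Ang II group for a library far from the other 3, 4 passed Dixon's critical value, and chance alone passes about 1 group in 20. Psmd6, a lid subunit gene, was at 50.8 CPM in Ang II 2 while the others lay between 52.6 and 52.7 CPM, a small gap beside a very narrow range. The summed level of the 6 ATPase genes was 527 CPM in Ang II 4, above 515 to 517 CPM in the others. The summed level of the 4 Psme activators was 196 CPM in Ang II 3, below 210.3 to 213 CPM. That library also held the skeletal muscle marker sum of 198 CPM, whose part in the result was not tested. The ratio of cap to core was 1.98 in Ang II 2, above 1.85 to 1.86, and that library held the lens marker sum of 1751 CPM, whose part was not tested either. The saline group, with 3 libraries, was not screened, so saline libraries far from the others are not listed here.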

How the results depend on the processing

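No alternative run gave a member that passed the adjusted threshold. The smallest adjusted p of a member was 0.172 (Psmb6, limma-voom), followed by 0.242 for Psmd3 and 0.289 for Psmb3, also with limma-voom. With edgeR and the replicate number as a block, the smallest was 0.545. Members at an unadjusted p under 0.05 numbered 3 with limma-voom, 2 without saline 2, 1 without Ang II 4 and 1 with the block. The share over all tested genes was not computed for these runs, so these counts cannot be read as particular to the members. Over all genes, where edgeR called 0, DESeq2 called 35, limma-voom 142, edgeR with no filter on low counts 98 and edgeR with the replicate block 56, and leaving out 1 library gave 0 to 117 (117 without saline 3). Deviations of same-numbered libraries from their group means had correlations of -0.0686, -0.0207 and 0.0463 for numbers 1 to 3. Values from so few libraries cannot show whether the numbers pair the samples, and no label says so. For the lists, leaving out 1 library gave 0 to 1 called gene of NRF1 and NRF2 control, and limma-voom called 1 ubiquitin gene. Cap genes below 0, 16 of 20, numbered 9 with scaling by total counts and 10 to 17 when 1 library was left out. Core subunits below 0 numbered 10 to 14 of 14 when 1 library was left out. Saline 3 stayed the highest library of 23 members with DESeq2 size factors and of 24 with total counts.

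Direction was not stable: 27 of the 43 members changed sign in at least 1 of 13 alternatives, and the causes were not tested. With scaling by total counts, which moved the median of all genes by 0.047, the changed log2 fold changes were 0.013 for Psma3, 0.025 for Psma4, 0.037 for Psma1, 0.0025 for Psmb7, 0.042 for Psmb8, 0.020 for Psmc5, 0.041 for Psmc6, 0.014 for Psmd5, 0.020 for Psmd7, 0.022 for Psmd8, 0.030 for Psmd12, 0.033 for Psmd6, 0.031 for Psme4, 0.039 for Psme3 and 0.024 for Psme2b. With limma-voom they were 0.057 for Psma6, -0.0086 for Psmc1, 0.011 for Psmc5, 0.056 for Psmc6, 0.019 for Psmd14, 0.10 for Psmd12, 0.072 for Psmd6 and 0.067 for Psme4. With the replicate block they were 0.065 for Psmb10, 0.13 for Psmb8, 0.045 for Psmc6, -0.033 for Psmd10, 0.021 for Psme4 and 0.031 for Psme2b, and with no filter 0.0015 for Psmc6. When 1 library was left out in turn, values ran from -0.13 to 0.030 for Psma7, -0.15 to 0.059 for Psma4, -0.061 to 0.044 for Psma1, -0.24 to 0.14 for Psmb7, -0.62 to 0.18 for Psmb9, -0.22 to 0.15 for Psmb10, -0.21 to 0.14 for Psmb8, -0.016 to 0.13 for Psmc2, -0.088 to 0.16 for Psmc1, -0.070 to 0.058 for Psmc5, -0.039 to 0.047 for Psmc6, -0.13 to 0.019 for Psmd13, -0.088 to 0.0074 for Psmd5, -0.024 to 0.18 for Psmd10, -0.062 to 0.19 for Psmd9, -0.099 to 0.073 for Psmd7, -0.10 to 0.028 for Psmd8, -0.085 to 0.034 for Psmd12, -0.081 to 0.087 for Psmd6, -0.033 to 0.16 for Psme1, -0.11 to 0.12 for Psme4, -0.033 to 0.039 for Psme3, -0.10 to 0.32 for Psmc3ip and -0.24 to 0.23 for Psme2b. The other 19 members kept their sign when 1 library was left out, with ranges of -0.14 to -0.017 for Psma2, -0.061 to -0.0065 for Psma3, -0.18 to -0.11 for Psma5, -0.20 to -0.030 for Psma6, -0.14 to -0.089 for Psmb1, -0.13 to -0.045 for Psmb2, -0.20 to -0.032 for Psmb3, -0.14 to -0.025 for Psmb4, -0.23 to -0.060 for Psmb5, -0.28 to -0.14 for Psmb6, -0.17 to -0.065 for Psmc3, -0.093 to -0.020 for Psmc4, -0.17 to -0.073 for Psmd1, -0.095 to -0.029 for Psmd11, -0.18 to -0.021 for Psmd14, -0.13 to -0.055 for Psmd2, -0.22 to -0.10 for Psmd3, -0.21 to -0.086 for Psmd4 and 0.047 to 0.44 for Psme2. Counting error weighs most on Psma8, Psmb8 and Psmb9, which had at most 42 counts in a library.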
